A study of Mus musculus with 6 samples.

Results

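Lipid droplet proteins were followed as 10 genes, Plin2, Plin4, Plin5, Cidea, Cideb, Cidec, Fitm1, Fitm2, G0s2 and Hilpda, of 19938 genes tested. They were chosen by name, and each was taken from the probe set that the platform annotation gives to that gene alone. All 10 were found, each with 1 probe set, and no filter on dim signals was applied, so none was lost. Livers of C57BL/6 mice, an inbred strain, were compared between a regular diet (RD) and a high fat diet (HFD), each eaten freely for 2 days, with 3 biological replicates and 3 arrays of total RNA per diet. The titles of all 6 samples carry the letters NI, whose meaning the labels do not give, and the age and sex of the mice and the make-up of the diets were not used here. Values are log2 signals as the authors deposited them; how they were summarised and normalized was not used here.

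Lipid droplets are the organelles in which cells store triglyceride and sterol esters, as a neutral lipid core inside a phospholipid monolayer. Proteins on and near that monolayer decide how droplets bud from the endoplasmic reticulum, how they fuse and how fast lipases reach the core. In hepatocytes they buffer incoming fatty acids, and several of their genes are known targets of the fatty acid receptor PPAR alpha.

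After 2 days of HFD, 3 of the 10 genes fell and 0 rose (limma, Benjamini-Hochberg adjusted p under 0.05). The falls were those of Fitm1 and Fitm2, whose proteins act when droplets bud from the endoplasmic reticulum, and of G0s2, whose product inhibits the triglyceride lipase ATGL. The droplet coat genes Plin2, Plin4 and Plin5, the 3 Cide genes and Hilpda did not pass. Among all genes 2.24% were called lower, 3.11% higher and 5.35% in either direction by the same rule. The median log2 difference of the 10 genes, HFD minus RD, was -0.04 and that of all genes was 0.00; 5 of the 10 differences were negative and 5 positive. The values of 4 of the 10 did not overlap between the diets, all of them lower in HFD. Among all genes 11.7% had no overlap and were lower in HFD, 14.0% had none and were higher, and 25.7% had none in either direction.

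The promoters of the 3 genes that fell are shown because these genes moved in the same direction. Each is the 250 bases before the gene's start in the RefSeq annotation of GRCm38.p6, in the direction of transcription. The window of Fitm1 is chr14:55575424-55575673 on the plus strand, that of Fitm2 is chr2:163472630-163472879 on the minus strand and that of G0s2 is chr1:193273189-193273438 on the minus strand. Capitals mark every match to a searched motif.
Fitm1: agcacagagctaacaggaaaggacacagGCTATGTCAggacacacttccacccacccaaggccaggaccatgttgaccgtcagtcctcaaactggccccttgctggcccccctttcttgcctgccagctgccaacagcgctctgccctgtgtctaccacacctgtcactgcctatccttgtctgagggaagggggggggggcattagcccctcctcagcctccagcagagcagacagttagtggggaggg
Fitm2: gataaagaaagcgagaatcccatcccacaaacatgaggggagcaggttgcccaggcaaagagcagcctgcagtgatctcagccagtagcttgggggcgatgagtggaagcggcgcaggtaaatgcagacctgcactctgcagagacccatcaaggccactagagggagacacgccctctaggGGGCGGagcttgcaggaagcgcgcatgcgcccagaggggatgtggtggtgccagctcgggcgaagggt
G0s2: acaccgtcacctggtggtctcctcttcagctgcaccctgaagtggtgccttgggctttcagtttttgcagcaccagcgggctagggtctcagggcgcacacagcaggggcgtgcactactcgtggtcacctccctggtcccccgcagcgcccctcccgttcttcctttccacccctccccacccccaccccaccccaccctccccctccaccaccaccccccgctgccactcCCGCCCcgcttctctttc

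The search covered 11 short motifs on both strands. These were the nuclear receptor hexamer AGGTCA, its extended form AAGGTCA, the direct repeat AGGTCANAGGTCA, the E-box CACGTG, the sterol response element TCACNCCAC, the antioxidant response element TGACNNNGC, the hypoxia response element ACGTGC, the cAMP response element TGACGTCA, the GC box GGGCGG, the CCAAT box CCAAT and the TATA box TATAAA. The first 3 overlap, since the longer forms contain the hexamer. None of the 11 motifs was found in all 3 windows. The capitals in Fitm1 are 1 match to the antioxidant response element, on the minus strand, and 10.2% of the 32851 windows of this length in the table hold one. The capitals in Fitm2 and in G0s2 are 1 GC box each, on the plus strand in Fitm2 and on the minus strand in G0s2, and 32.7% of all windows hold that motif. Members were counted by gene, with a match in any window of the gene. Of the 9 members with a window, 2 hold the hexamer (Plin2 and Plin5, 14.0% of all windows). The antioxidant response element is in 2 (Fitm1 and Cideb) and the GC box in 5 (Fitm2, G0s2, Cideb, Hilpda and Plin5). The hypoxia response element is in 1, Hilpda (4.92% of all windows). The CCAAT box is in 3 (Plin2, Plin4 and Plin5, 33.8% of all windows) and the TATA box in 1, Cideb (12.4%). The extended hexamer, the direct repeat, the E-box, the sterol response element and the cAMP response element are in 0. Plin5, Hilpda and Cidec have more than 1 window each, so counts by gene and shares of windows are unlike measures. The GC content was 60.4% in Fitm1, 60.8% in Fitm2 and 67.2% in G0s2, against a median of 52.4% over all windows, while CpG pairs numbered 2, 11 and 11 against a median of 6. Windows of members that did not pass ranged from 47.2% (Cideb) to 70.0% (Plin5), with Plin2 at 61.6% and Plin4 at 65.2%. Their CpG pairs numbered 4 (Cidec) to 23 (Hilpda), so high GC content was not particular to the genes that fell. A match describes these letters only and is not evidence that a factor binds there.

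**Figure D1:**
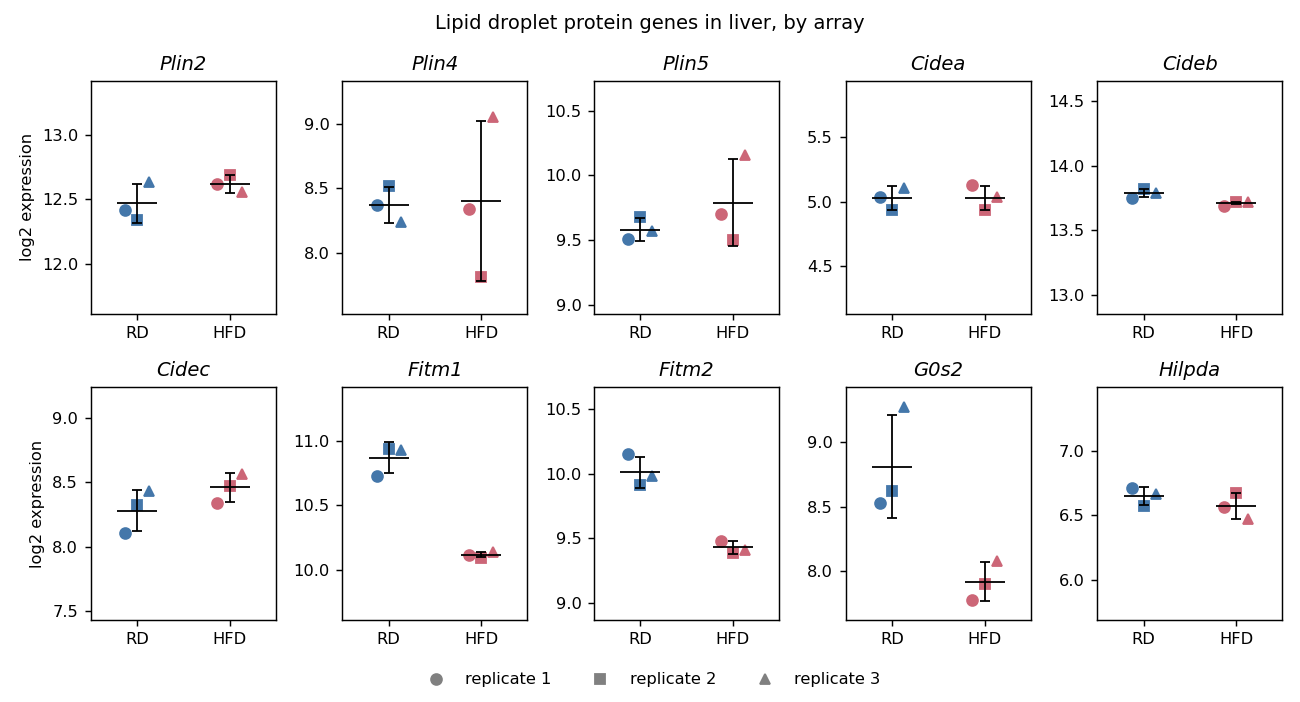
Log2 expression of each of the 10 genes (vertical axis, the same span of 1.8 log2 units in every panel) in 3 RD arrays (blue) and 3 HFD arrays (red); symbols mark the replicate number, horizontal bars the mean and error bars the SD. The HFD points lie below all RD points in Fitm1, Fitm2 and G0s2 and, by a narrow margin, in Cideb, and they spread widely in Plin4 and Plin5.

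Fitm1 and Fitm2 encode the fat storage-inducing transmembrane proteins, which sit in the endoplasmic reticulum and help nascent droplets form on its cytosolic side. Fitm1 is best known from skeletal muscle and heart, and Fitm2 is made in many tissues, fat among them. Fitm1 (probe set 10415279) read 10.73, 10.94 and 10.93 in RD replicates 1 to 3 and 10.12, 10.09 and 10.14 in the HFD replicates. The diets did not overlap, and the HFD arrays lay within 0.05 of each other, a narrower range than in the RD arrays (0.21). The mean went from 10.87 ± 0.12 to 10.12 ± 0.02 (SD, n = 3 each), a log2 difference of -0.75 ± 0.08 (SE; 95% confidence interval -0.92 to -0.57; limma adjusted p = 0.0016). On the linear scale HFD signal was 59.6% of RD signal.

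Fitm2 (probe set 10489368) read 10.15, 9.91 and 9.98 in RD and 9.48, 9.39 and 9.41 in HFD. Again each HFD array was below each RD array, and the HFD arrays were the closer set. The mean went from 10.01 ± 0.12 to 9.43 ± 0.05 (SD, n = 3 each), and the log2 difference was -0.59 ± 0.08 (SE; interval -0.77 to -0.41; limma adjusted p = 0.0057), which is 66.6% of RD signal. Both falls passed whichever single array was left out, with adjusted p up to 0.010 for Fitm1 and 0.024 for Fitm2. The falls of the pair differed by 0.16 ± 0.14 (SE) on the log2 scale, Fitm1 the larger (exact permutation test, two-sided, p = 0.4). With 3 arrays against 3 that test cannot go below 0.1, so an unequal fall could not have been called.

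Because Fitm1 is a muscle gene elsewhere, markers of skeletal muscle were read beside it. None of 10 muscle markers was called by limma at an adjusted p under 0.05, and 0 had an unadjusted p under 0.05. Their summed signal was 9.90 to 9.99 on the log2 scale in RD and 9.86 to 9.97 in HFD, and 9 of the 10 had a mean below the median of all genes. The hepatocyte markers were bright and level, since their summed log2 signal was 17.09 to 17.10 in RD and 17.06 to 17.09 in HFD and 0 of 8 were called (0 at an unadjusted p under 0.05). Their RD means ran from 13.44 (Hnf4a) to 14.42 (Alb), near the highest value of 14.86 on any array. Whether a change in the share of hepatocytes would show in them was not tested. In whole tissue, fewer cells of a type and less RNA per cell cannot be told apart.

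G0s2 binds ATGL, the enzyme encoded by Pnpla2 that takes the first fatty acid off stored triglyceride, and blocks it. G0s2 (probe set 10361246) read 8.53, 8.62 and 9.27 in RD and 7.78, 7.90 and 8.08 in HFD. RD replicate 3 stood well above the other RD arrays, and the RD range of 0.74 was wider than that of 99.1% of all genes, yet the diets did not overlap. The mean went from 8.81 ± 0.40 to 7.92 ± 0.15 (SD, n = 3 each), a log2 difference of -0.88 ± 0.18 (SE; interval -1.30 to -0.47; limma adjusted p = 0.031), or 54.2% of RD signal. This was the largest difference of the 10 genes and the least firm of the 3 calls. It was kept without RD replicate 1 (adjusted p = 0.046) or RD replicate 3 (adjusted p = 0.022, difference -0.65). It was lost without RD replicate 2 (adjusted p = 0.068) or HFD replicate 1, 2 or 3 (adjusted p = 0.094, 0.080 and 0.060). The target of the inhibitor, Pnpla2, went from 11.57 ± 0.09 to 11.34 ± 0.09, and its difference of -0.23 ± 0.08 did not pass (limma adjusted p = 0.150). Abhd5, which codes for the activator of the same lipase, differed by 0.10 ± 0.07 and did not pass either (adjusted p = 0.523). Both are named as partners of G0s2 and not for their values.

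**Figure D2:**
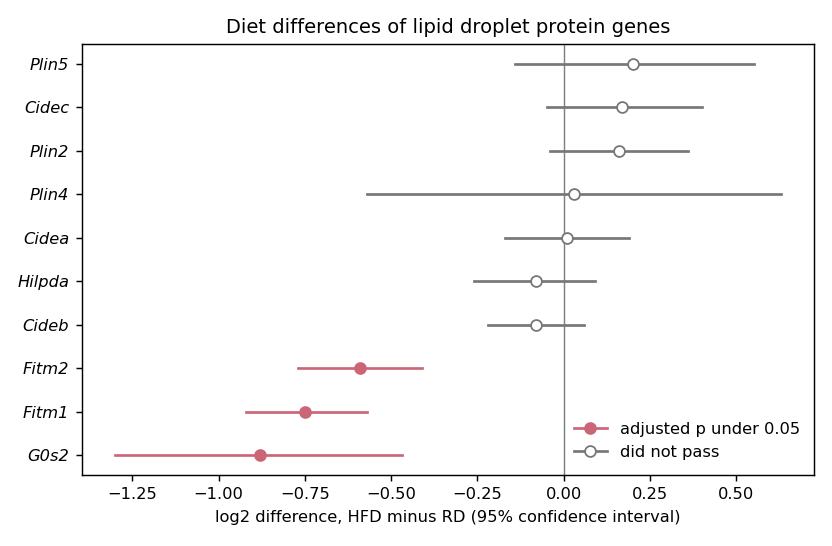
Log2 difference, HFD minus RD (horizontal axis), of each of the 10 genes with its 95% confidence interval from limma; filled red points passed at an adjusted p under 0.05. Fitm1, Fitm2 and G0s2 lie between -0.88 and -0.59 with intervals clear of 0, and the other intervals all cross 0, that of Plin4 being the widest at -0.57 to 0.63.

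Perilipins coat the droplet and control the access of lipases. Plin2 is the perilipin of most hepatocyte droplets, Plin5 tethers droplets to mitochondria in oxidative tissues, and Plin4 is best known from fat and muscle. Plin2 (probe set 10514221) read 12.42, 12.34 and 12.63 in RD and 12.62, 12.69 and 12.56 in HFD. RD replicate 3 lay among the HFD values, so the diets overlapped, and the log2 difference of 0.16 ± 0.09 (SE) did not pass (limma adjusted p = 0.381). Its interval of -0.04 to 0.36 corresponds to an HFD signal of 0.97 to 1.28 times that of RD.

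Plin5 (probe set 10451943) read 9.51, 9.68 and 9.57 in RD and 9.70, 9.50 and 10.16 in HFD, a difference of 0.20 ± 0.15 (interval -0.14 to 0.55; adjusted p = 0.525). HFD replicate 3 was the highest of the 6 arrays and HFD replicate 2 the lowest. Without HFD replicate 3 the difference was 0.02. Plin4 (probe set 10451932) read 8.37, 8.52 and 8.24 in RD and 8.34, 7.81 and 9.05 in HFD, with the same HFD arrays at the extremes. Its mean difference was 0.03 ± 0.26 (adjusted p = 0.972), and it was 0.32 without HFD replicate 2 and -0.30 without HFD replicate 3. The HFD range of 1.25 in Plin4 was wider than that of 99.8% of all genes, and the 0.66 of Plin5 wider than that of 98.2%. In RD the corresponding ranges were 0.28 and 0.17. The interval of Plin4, -0.57 to 0.63, is correspondingly the widest of the 10, and changes of that size in either direction could not be told from none.

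Plin4 and Plin5 are next to each other on chromosome 17 in RefSeq. On the far side of Plin5 lies Lrg1, which differed by 0.10 ± 0.10 (adjusted p = 0.641). On the far side of Plin4 lies Hdgfl2, whose span overlaps that of Plin4 and which differed by -0.12 ± 0.08 (adjusted p = 0.446). Where the probes of Plin4 lie relative to Hdgfl2 was not used here.

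The wide spread of Plin4 and Plin5 was set beside that of 16 target genes of PPAR alpha, taken from a list without the droplet genes. HFD replicate 3 was the highest HFD array in 12 of those 16 and in 5 of the 10 droplet genes, against 38.4% of all genes. Among the RD arrays, replicate 3 was the highest in 13 of the 16 and in 4 of the 10 droplet genes, against 40.1% of all genes. Pdk4, the kinase that switches off pyruvate dehydrogenase, read 9.89, 9.76 and 10.57 in HFD replicates 1 to 3, the same order of arrays as in Plin4 and Plin5. Acot1, a cytosolic acyl-CoA thioesterase, read 9.12, 9.05 and 9.60, again in that order. Acot1 is named after its values were seen. Plin2 did not follow, since its HFD arrays read 12.62, 12.69 and 12.56. Among the RD arrays Plin4 (8.52) and Plin5 (9.68) were both highest in replicate 2, and Plin4 was lowest in replicate 3 (8.24). Why replicate 3 of each diet was so often the highest among the PPAR alpha targets was not tested.

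**Figure D3:**
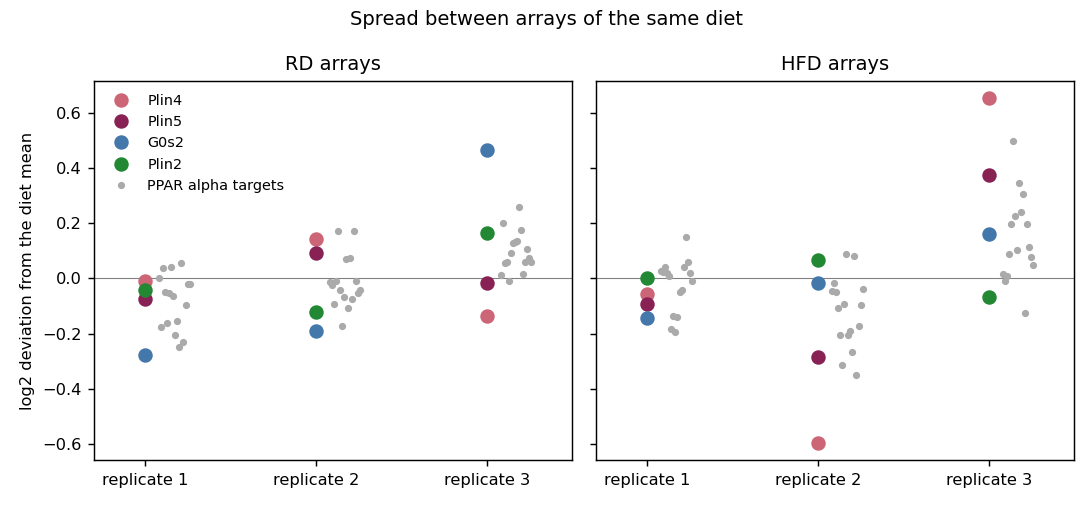
Deviation of each array from the mean of its own diet on the log2 scale (vertical axis) for Plin4, Plin5, G0s2 and Plin2 (coloured points) and 16 PPAR alpha target genes (small grey points), RD arrays on the left and HFD arrays on the right. Plin4 and Plin5 are low in HFD replicate 2 and high in HFD replicate 3, most grey points are highest in replicate 3 of each diet, and G0s2 stands out in RD replicate 3.

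CIDE proteins gather where droplets touch and pass lipid from the smaller to the larger one. Cideb is the form of normal hepatocytes and also serves the lipidation of very low density lipoprotein, Cidec is the fat-specific protein FSP27 that marks fatty liver, and Cidea belongs to brown fat and also appears in fatty liver. Cideb (probe set 10420165) read 13.75, 13.82 and 13.79 in RD and 13.69, 13.72 and 13.72 in HFD. The diets did not overlap, but the difference of -0.08 ± 0.06 (SE) was small and did not pass (limma adjusted p = 0.551), and its interval of -0.22 to 0.06 limits HFD signal to 0.86 to 1.04 times RD. The RefSeq span of Cideb overlaps those of its neighbours Nop9 and Ltb4r2, and where its probes lie was not used here.

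Cidec (probe set 10546929) read 8.11, 8.32 and 8.43 in RD and 8.34, 8.47 and 8.56 in HFD, which overlap. Its difference of 0.17 ± 0.10 (interval -0.05 to 0.40) did not pass (limma adjusted p = 0.382), and a rise above 1.32-fold lies outside the interval. Cidea (probe set 10456392) read 5.04, 4.94 and 5.11 in RD and 5.13, 4.94 and 5.04 in HFD, a difference of 0.01 ± 0.08 (interval -0.17 to 0.19; adjusted p = 0.979). Its mean was below the median of all genes in a table without detection calls, so its values may not be above background and set no limit on the transcript itself. Within the family, the largest gap was between Cideb and Cidec, whose differences were 0.25 ± 0.10 (SE) apart on the log2 scale (exact permutation test, two-sided, p = 0.1, the smallest it allows; 0.7 after Benjamini-Hochberg adjustment over the 7 pairs). Over the 7 pairs of the Plin, Cide and Fitm families 0 passed, with exact p from 0.1 to 0.9.

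Hilpda is a small droplet protein that, like G0s2, inhibits ATGL, and its gene is known to respond to hypoxia and to fatty acids. Hilpda (probe set 10536794) read 6.71, 6.57 and 6.66 in RD and 6.56, 6.67 and 6.47 in HFD. The diets overlapped, with a difference of -0.08 ± 0.08 (SE; interval -0.26 to 0.09; limma adjusted p = 0.620). Its mean, too, was below the median of all genes. So the 2 ATGL inhibitors gave different calls, G0s2 lower and Hilpda not passing; whether their differences were unequal was not tested.

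Markers of fat tissue were read beside Plin4, Cidea and Cidec, which adipocytes also express. Of 8 measured adipocyte markers 1 was called, the hormone-sensitive lipase gene Lipe (-0.59 ± 0.10; limma adjusted p = 0.018), and the summed log2 signal of the 8 was 13.87 to 13.96 in RD and 13.82 to 13.96 in HFD. Pck1 and Lipe are also expressed by the liver. Without this pair, a choice made after seeing the data, 6 markers remained and 0 were called by limma (1 at an unadjusted p under 0.05), all 6 had a mean below the median of all genes, and their summed log2 signal was 8.91 to 8.99 in RD and 8.72 to 8.85 in HFD. The adipokine gene Adipoq, a defining marker of fat, had a mean of 5.18 ± 0.08 in RD. The part of adipocyte RNA in the Plin4, Cidea and Cidec values was not tested.

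Most Kupffer cell markers and all measured cholangiocyte markers were called higher in HFD, in the direction opposite to Fitm1, Fitm2 and G0s2. Of 10 markers of Kupffer cells, the resident macrophages, 6 rose, among them Cd5l (0.85 ± 0.12), Timd4, C1qb and Adgre1, and their summed log2 signal was 13.69 to 13.76 in RD and 14.00 to 14.50 in HFD. The count of 6 was 1 without RD replicate 1 or RD replicate 2, 2 without RD replicate 3 or HFD replicate 3, and 5 and 8 without HFD replicates 1 and 2. All 5 measured markers of cholangiocytes, the cells of bile ducts, rose, with Epcam at 0.54 ± 0.10, Krt19 at 0.70 ± 0.14, Sox9 at 0.29 ± 0.06 and Krt7 at 0.33 ± 0.07. Their summed signal was 9.75 to 9.90 in RD and 10.19 to 10.38 in HFD, and 0 or 1 passed when any 1 array was left out. Among 9 markers of stellate cells, which hold droplets of retinyl esters, 0 were called (0 at an unadjusted p under 0.05; summed log2 signal 13.45 to 13.53 in RD and 13.56 to 13.64 in HFD). Of 7 markers of monocytes and neutrophils 1 rose, Cd14 (8.97 to 9.05 in RD and 9.20 to 9.43 in HFD for the summed signal). The summed signals of the stellate list and of the monocyte and neutrophil list were thus also higher in every HFD array. A sum is led by its brightest genes, and the median differences were 0.04 and 0.23. In the stellate list 2 of 9 genes had no overlap and were higher in HFD, and 0 were lower. In the monocyte and neutrophil list 2 of 7 were higher in that way and 1 lower. Among all genes the shares were 14.0% higher and 11.7% lower. Of 8 sinusoidal endothelial and 8 lymphocyte markers 0 were called by limma (0 at an unadjusted p under 0.05 in each list), with summed signals of 13.76 to 13.84 and 9.77 to 9.86 in RD and 13.83 to 14.02 and 9.69 to 10.23 in HFD. The part of these cells in the droplet gene values was not tested.

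**Figure D4:**
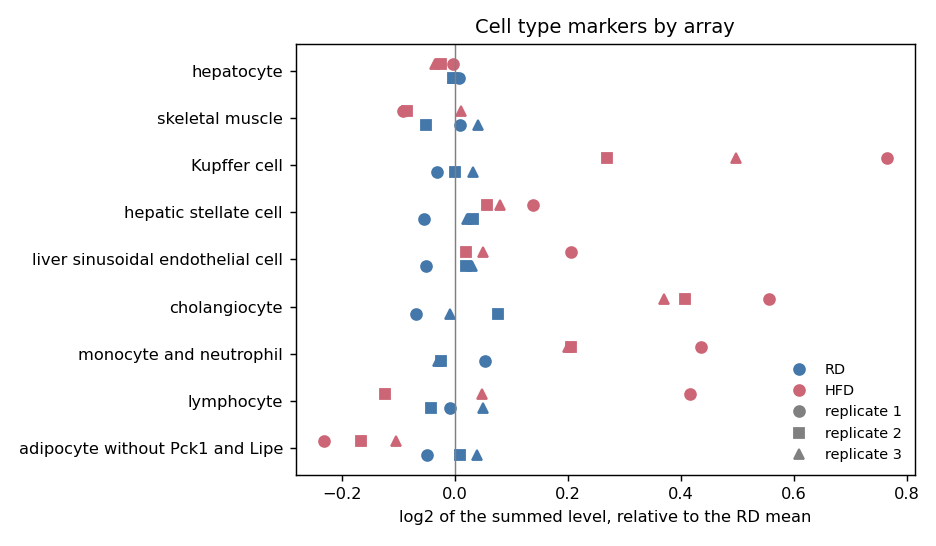
Log2 of the summed signal of each list of cell type markers relative to its mean in RD (horizontal axis), for 3 HFD arrays (red, upper row of each list) and 3 RD arrays (blue, lower row), with symbols for the replicate number. The adipocyte list is drawn only without Pck1 and Lipe, a choice made after seeing the data. The summed signals of Kupffer cell, cholangiocyte, stellate cell, and monocyte and neutrophil markers are higher in all 3 HFD arrays than in any RD array. A sum is led by its brightest genes and need not hold for each marker. The summed signal of the adipocyte markers drawn is lower in all 3 HFD arrays, and that of hepatocyte markers stays within a narrow band.

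The rest of the droplet and triglyceride machinery was described by 6 related lists. Among 14 other proteins that sit on droplets 2 rose and 0 fell (median difference 0.05). Plin3, the ubiquitous perilipin that also binds nascent droplets, read 9.46, 9.47 and 9.76 in RD and 10.15, 10.30 and 10.10 in HFD, with no overlap. It rose by 0.62 ± 0.10 on the log2 scale (SE; limma adjusted p = 0.013), and it failed the test without RD replicate 1 or without RD replicate 2 (highest adjusted p 0.060). Hsd17b11, a droplet-bound steroid dehydrogenase, rose by 0.46 ± 0.08 (adjusted p = 0.021), and it failed without replicate 1 or 2 of either diet (highest adjusted p 0.081). Without RD replicate 1 or 2 the count of rises was 0, and it was 1 if HFD replicate 1 or 2 was left out. The 3 perilipins among the 10 genes and Plin3 thus gave different calls, and whether Plin3 differed from them in its change was not tested.

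Of 9 genes of triglyceride hydrolysis 2 fell and 0 rose (median -0.12). Lipe read 9.23, 9.60 and 9.52 in RD and 8.96, 8.84 and 8.78 in HFD, and its fall was kept only without RD replicate 1 or HFD replicate 1 (highest adjusted p 0.067 otherwise). Aadac, an esterase of the endoplasmic reticulum, fell by 0.29 ± 0.06 on the log2 scale (limma adjusted p = 0.040), and it failed without each single array (highest adjusted p 0.116). The list held 0 or 1 falls without any 1 array, and 1 rise without RD replicate 3.

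Of 15 genes of triglyceride synthesis 2 fell and 1 rose (median -0.05). Lpin1, the phosphatidate phosphatase that makes diacylglycerol, read 13.23, 13.22 and 13.06 in RD and 12.41, 12.47 and 12.55 in HFD. It fell by 0.69 ± 0.08 on the log2 scale (SE; limma adjusted p = 0.0024) and passed without any 1 array. Gpam, the mitochondrial glycerol phosphate acyltransferase, fell by 0.29 ± 0.07 (adjusted p = 0.049), and failed without each single array (highest adjusted p 0.148). Gpat3, an acyltransferase of the endoplasmic reticulum for the same step, rose by 0.68 ± 0.14 (adjusted p = 0.028), but failed without RD replicates 1 or 2 and without HFD replicates 1 or 3 (highest adjusted p 0.097). Without any 1 array 1 gene of the list fell. Dgat2, which adds the last fatty acid and is named for that role, differed by -0.22 ± 0.07 and did not pass (adjusted p = 0.117).

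Among the 16 PPAR alpha targets 3 rose and 1 fell (median 0.02). The peroxisomal enzyme gene Ehhadh rose by 1.05 ± 0.10 (limma adjusted p = 9.2e-04) and kept its call without any 1 array. Pdk4 rose by 1.01 ± 0.19 (adjusted p = 0.021), but failed without each single RD array (highest adjusted p 0.084). Acaa1b (0.31 ± 0.07) rose and Cpt1a (-0.33 ± 0.06) fell, and both failed without each single array. The list held 1 or 2 rises and 0 falls without any 1 array.

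Of 15 regulators 1 rose, Srebf1 (0.97 ± 0.22; limma adjusted p = 0.040), and 1 fell, Ppara itself, from 12.43 ± 0.07 to 12.13 ± 0.03 (difference -0.30 ± 0.07; adjusted p = 0.039). Ppara failed without each single array (highest adjusted p 0.115), and that of Srebf1 was kept only without RD replicate 3. Of 14 hypoxia targets 2 fell and 0 rose (median 0.05). Pdk1, a kinase of pyruvate dehydrogenase, fell by 0.65 ± 0.06 on the log2 scale (adjusted p = 0.0013), also without any 1 array, and Vegfa, the endothelial growth factor, by 0.32 ± 0.07 (adjusted p = 0.044), kept only without RD replicate 3. The median of the regulators was -0.08.

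**Figure D5:**
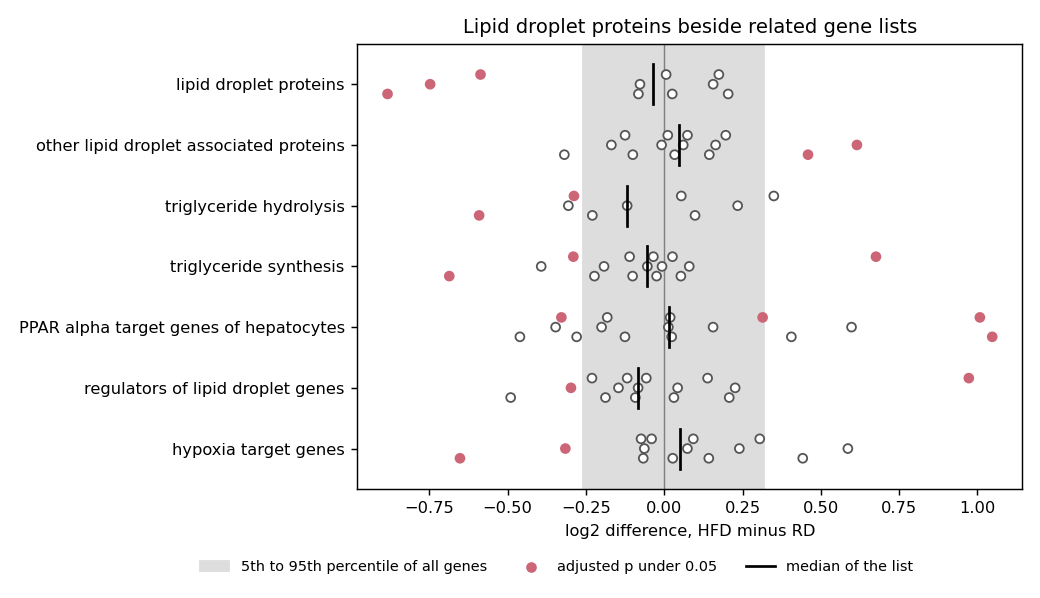
Log2 difference, HFD minus RD (horizontal axis), of every measured gene of the 10 droplet genes and 6 related lists; red points passed limma at an adjusted p under 0.05, black bars are list medians and the grey band is the 5th to 95th percentile of all genes (-0.26 to 0.32). The 3 droplet genes that fell lie left of the band, and each list median lies within it.

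Neighbouring genes were read as a check on position. Fitm1 lies between Dcaf11 (-0.06 ± 0.08) and Psme1 (0.21 ± 0.10), Fitm2 between Gdap1l1 (-0.04 ± 0.11) and R3hdml (-0.22 ± 0.07), and G0s2 between Hsd11b1 (0.04 ± 0.07) and Lamb3 (-0.10 ± 0.07), by log2 difference ± SE. None of these 6 neighbours passed in limma (adjusted p from 0.146 to 0.898), and 5.35% of all genes did. The gene between each pair was chosen because it had passed, so its contrast with the neighbours is no test of position.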

How the data were processed

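Each probe set has 1 deposited log2 value on each array; the summarisation and normalization behind it were not used here, and the base was read from the range of 2.28 to 14.86. RNA was labelled with a GeneChip kit, per the labels. The 6 arrays had medians of 7.06 to 7.11, and values were used as deposited. No depth applies to arrays, whose number limits the precision; detection calls and scan dates were not used here.

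Of 35512 probe sets, 21789 carry 1 gene symbol in the platform annotation, which can be old, and 1621 carry several; the latter were left out. The brightest probe set of each of 19938 genes was tested for diet, without covariates, by limma 3.58.1 (R 4.3.3; lmFit, eBayes, two-sided, Benjamini-Hochberg over all genes, threshold 0.05). Confidence intervals are 95% and moderated. Pairs within families were compared by exact permutation in SciPy 1.17.1. Only the main limma fit was also run on simulated arrays with known changes, and the other steps were not. Replicate numbers come from the titles and were not used as pairs.

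Genes named are the 10 droplet genes and, of each list, up to 4 that passed, by smallest p; others are said to be named for another reason. The members and lists were chosen with earlier results of these data known. Promoters came from RefSeq (GRCm38.p6), which has a window for 9 of the 10 genes; the 50 bases after the start were left out. Alternatives are in the closing section.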

Additional observations from a re-analysis of the deposited data

How the results depend on the processing

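Fitm1, Fitm2 and G0s2 were lower in HFD under each of the 16 alternatives, with differences of -0.82 to -0.71, -0.64 to -0.52 and -1.02 to -0.65. The shared sign is not independent support. The diets did not overlap in these genes, so leaving out 1 array could not turn it. Several other settings change only the test or the genes tested and return the same difference. Fitm1 and Fitm2 passed in 15 of 16 and G0s2 in 10 of 16. With an unmoderated linear model none of the 3 passed (-0.75, adjusted p = 0.057; -0.59, adjusted p = 0.078; -0.88, adjusted p = 0.213), so the count of falls was 0; that model called 41 genes higher and 58 lower in all. When every row of the table was tested G0s2 did not pass (-0.88, adjusted p = 0.113), and 168 rows were higher and 173 lower. Without 1 array in turn the count of falls was 2 or 3. With the replicate number as a block, Fitm1, Fitm2 and G0s2 passed (adjusted p = 0.0088, 0.015 and 0.014), and 318 genes were higher and 245 lower; deviations of same-numbered arrays from their diet means correlated over genes at -0.11, 0.00 and 0.12, so the numbers were not read as a pairing. At 1.5-fold or more, 208 genes were higher and 151 lower. Without 1 array, 197 to 371 genes were higher and 178 to 273 lower, against 621 and 446. Centring on medians gave 726 higher and 384 lower genes.

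The 7 other genes passed under no alternative. Ranges without 1 array were 0.10 to 0.24 for Plin2, 0.02 to 0.35 for Plin5, -0.09 to -0.06 for Cideb, 0.09 to 0.24 for Cidec and -0.13 to -0.04 for Hilpda. The sign of Plin4 turned with array weights (-0.11) and without RD replicate 3 (-0.04) or HFD replicate 3 (-0.30), with a range up to 0.32. That of Cidea turned with array weights (-0.01) and without RD replicate 2 or HFD replicate 1 (-0.04 each), with a range up to 0.05. The gap between Plin2 and Plin4 turned without HFD replicate 2 (-0.20; range up to 0.49), and that between Plin2 and Plin5 without RD replicate 3 (0.04) or HFD replicate 3 (0.17; range from -0.22). The causes were not tested. Cidea and Hilpda were not among the brighter genes, so that alternative gives them no value.

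Over the same alternatives the rises in the related lists ranged from 0 to 2 for other droplet proteins, 0 to 1 for hydrolysis, synthesis, regulators and hypoxia, and 0 to 4 for PPAR alpha targets. The falls ranged from 0 to 3 for hydrolysis and synthesis, 0 to 2 for PPAR alpha targets, 0 to 1 for regulators and 1 to 2 for hypoxia, and were 0 for other droplet proteins. Of 357 values for 24 named list and marker genes under these settings, 147 lost the call and 0 turned.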
